A study of Mus musculus with 47 samples.

Results

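The muscle transcriptome of female and male C57BL/6J mice was compared in 8 female and 8 male libraries, 16 of the 47 libraries of the series, and over autosomal genes. The libraries were chosen by the strain and sex in their titles, and genes by the chromosome that the deposited annotation gives. The series holds poly(A) RNA of the gastrocnemius, the large calf muscle, from 3 inbred strains, both sexes and 2 diets. All C57BL/6J mice used here were labelled wild type and without treatment, and diets began at 6 weeks of age with tissue taken at 15 weeks. The 4 groups were females on 10% fat+fiber (control), females on 44% fat+fiber (rich in fat and sugar), males on 10% fat+fiber and males on 44% fat+fiber, with 4 libraries in each. Replicate numbers were given here in the order of the deposited samples, and only name a library. The other strains were CAST/EiJ (15 libraries), derived from wild mice, and NZO/HlLtJ (16 libraries), an obese strain, and they served only to ask where the sex difference of C57BL/6J differed from theirs. No label says that each library is a mouse of its own, so p-values measure only the spread between libraries, which may be technical.

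Skeletal muscle is a target of androgens, estrogens and growth hormone, and male and female muscle differ in mass and in the mix of fibre types. Fast fibres contract quickly and tire sooner, slow fibres use the slow myosin heavy chain Myh7 and work for longer, and the mouse gastrocnemius is mostly fast. Polyamines are small charged molecules needed for cell growth. Odc1 makes the first of them from ornithine, Amd1 supplies the aminopropyl groups for the larger ones, and Smox oxidises spermine back to spermidine. In rodent muscle, Odc1 and Amd1 are known targets of androgen.

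The 16 libraries held 31.81 to 49.55 M assigned read counts (M, 1e6 counts), with a median of 41.3 M. Xist was at 214 to 293 CPM (read counts scaled to a library total of 1e6, adjusted for library composition) in the 8 female libraries and at most 0.141 CPM in the 8 male libraries, and 4 Y-linked genes showed the reverse, so all 16 sex labels held. Skeletal myofibre markers summed to 90100 to 114000 CPM in females and 94200 to 114000 CPM in males. Of the 8 female libraries, 5 (replicates 2, 3 and 4 on 10% fat and replicates 1 and 2 on 44% fat) held Krt8, a keratin of simple epithelia, at 3.19 to 8.29 CPM. The other 3 female libraries held Krt8 at 0 to 0.0897 CPM and the male libraries at 0 to 0.346 CPM. A list of 6 epithelial genes, chosen after these values were seen, summed to 1.14 to 23.9 CPM in females and 0.777 to 1.70 CPM in males. Krt18 reached 8.45 CPM, Epcam 2.29 CPM and Cdh1 3.91 CPM in females, against at most 0.639, 0.391 and 0.685 CPM in males. Sample identifiers in the titles fall into 3 stretches of consecutive numbers, here called runs, whose meaning is not given in the sources used here. Females had 2, 4 and 2 libraries in them and males 2, 2 and 4, and the model held a term for the run. Counts of the main gene lists are also given without those 5 libraries. This leaves 3 female libraries, replicate 1 on 10% fat and replicates 3 and 4 on 44% fat. The sex effect is the mean over both diets, so its 10% fat part then rests on 1 female library.

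Of 16592 autosomal genes tested, 2509 (15.1%) differed between the sexes at an adjusted p under 0.05 in edgeR's quasi-likelihood test. Expression was higher in females for 1056 (6.36%) and lower for 1453 (8.76%). Most differences were small. The median size over the genes called was 0.36 on the log2 scale, and 375 genes differed at least 2-fold, 221 of them higher in females. Over all genes tested the median log2 fold change, female minus male, was 0.04. CPM values of the 8 female and 8 male libraries did not overlap for 678 genes (4.09%). Without the 5 libraries with Krt8 above 3 CPM, 834 genes were called, 766 of them among the 2509. With the epithelial score as a covariate, 1134 were called. Calls fell over all genes in both settings, so a lower count for a gene list there cannot be read as particular to that list.

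The polyamine genes that differed were all lower in females, and among transcripts above 100 CPM Amd1 had the largest difference of all. Of 14 autosomal members of the polyamine list that were tested, 6 (42.9%) were lower in females, against 8.76% over all genes, and none was higher. The median log2 fold change was -0.17 against 0.04 over all genes. The 4 large changes were in Amd1, Amd2, Smox and Odc1. Amd1 and Amd2 are near-identical copies whose reads may be shared, so the counts may hold the same change more than once. The small ones were in Oaz1 and Oaz2, which encode antizymes that block Odc1 and send it to degradation, at -0.17 and -0.21. Spermidine synthase Srm was at 0.13 with an adjusted p of 0.6, and the members not named did not pass. Without the 5 libraries with Krt8 above 3 CPM, 4 members of the list polyamine synthesis and turnover were lower in females.

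Amd1 (chromosome 10, 40287458-40302188, GRCm38) encodes S-adenosylmethionine decarboxylase. It was at 159 CPM in the lowest, 206 in the median and 254 in the highest of the 8 female libraries, and at 1709, 1972 and 2473 CPM in the males. Every male library lay above every female library, and the lowest male value was several times the highest female value. The log2 fold change was -3.32 ± 0.14 (SE), adjusted p = 8.55e-21. It was -3.39 on 10% fat and -3.26 on 44% fat, and -3.13, -3.43 and -3.35 within the 3 runs of sample identifiers. Amd2 (chromosome 10, 35708691-35711891) is a near-identical copy of Amd1, so reads of either may have been assigned to the other. Amd2 was at 0.532 to 1.30 CPM in females and 6.26 to 9.71 CPM in males (log2 fold change -3.04 ± 0.18, adjusted p = 3.65e-16), and its value cannot be taken as separate from that of Amd1.

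The 250 bases before the Amd1 start site (RefSeq, GRCm38.p6, chr10:40302189-40302438, minus strand) are shown because this gene had the largest male excess among transcripts above 100 CPM. Capitals mark matches to the GC box letters GGGCGG, the TATA box letters TATAAA or the androgen receptor half-site letters AGAACA, on either strand.
Amd1: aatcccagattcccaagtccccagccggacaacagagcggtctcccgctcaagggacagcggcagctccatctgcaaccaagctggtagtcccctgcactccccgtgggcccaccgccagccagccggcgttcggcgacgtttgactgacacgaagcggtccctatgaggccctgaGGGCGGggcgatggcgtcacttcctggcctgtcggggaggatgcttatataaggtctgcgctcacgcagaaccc
The window held 1 GC box and no match to the other letters. Only exact letters were searched, so the stretch tataag near the start site, which differs from TATAAA in its last letter, was not marked. Of 32851 RefSeq promoter windows of the same length, 32.7% held a GC box, 12.4% the TATA letters and 16.1% the androgen half-site. A match describes letters only, and the absence of one says nothing about a factor outside these bases.

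Smox (chromosome 2, 131491496-131525922), spermine oxidase, was at 38.4, 50.2 and 60.9 CPM in the lowest, median and highest female library and at 218, 248 and 329 CPM in the males. The sexes did not overlap. The log2 fold change was -2.34 ± 0.17, adjusted p = 1.71e-13. Odc1 (chromosome 12, 17544873-17551502), ornithine decarboxylase, was at 37.8, 50.1 and 76.4 CPM in females and 137, 178 and 279.6 CPM in males. Here too the sexes did not overlap, with a log2 fold change of -1.76 ± 0.13 and an adjusted p of 2.73e-13. The plot of polyamine genes gives every library by diet.

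**Figure D1:**
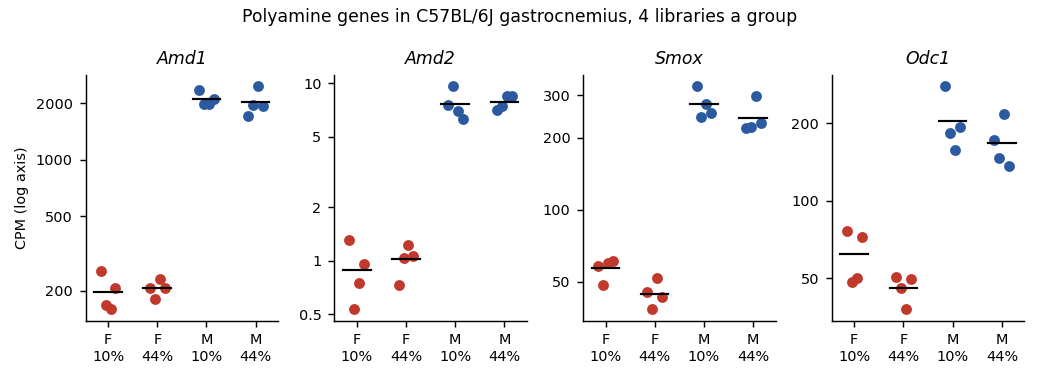
CPM of 4 polyamine genes on log axes, by sex (F, M) and percent fat in the diet, in C57BL/6J gastrocnemius. Each point is a library and black bars are means of 4 libraries. For Amd1, females lie between 159 and 254 CPM and males between 1709 and 2473 CPM, and for all 4 genes the sexes do not overlap.

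Beyond the polyamine genes, the genes named for the largest male excess or the smallest p have varied roles. Slc15a5, of the family of proton-coupled peptide transporters, was at 0 to 0.319 CPM (median 0.194) in females and 3.83 to 12.3 CPM (median 5.23) in males, a log2 fold change of -5.11 ± 0.32. C7, a component of the terminal complement pathway, was at 1.07 to 1.80 CPM in females and 12.8 to 29.4 CPM in males (-4.01 ± 0.21). The zinc transporter Slc30a2 was at 1.21 to 2.10 CPM in females and 18.1 to 28.7 CPM in males (-3.93 ± 0.18, adjusted p = 1.11e-19). In each of these genes the sexes were fully separate. Actr3b, a subunit of the Arp2/3 complex that branches actin, had the smallest p of all autosomal genes. It was at 1.031, 1.204 and 1.728 CPM in females and 14.08, 16.81 and 19.04 CPM in males, a log2 fold change of -3.71 ± 0.14 (adjusted p = 1.14e-22). Cacna2d4, an auxiliary calcium channel subunit, was at -3.31 ± 0.22. Its span overlaps Lrtm2 on the opposite strand, which was also lower in females (-1.72), and whether the counting used strand is not given in the sources used here.

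Further genes lower in females, none with overlapping sexes, included the transcription factor Tfcp2l1 (-2.65), the kainate receptor partner Neto2 (-2.53), Odf3l2 (-2.30), the Mediator kinase Cdk19 (-2.26), the decarboxylase Gadl1 (-1.78), the adaptor Shc2 (-1.50), the protease inhibitor Serpinb6a (-1.38) and the kinase Hipk2 (-0.95 ± 0.05). Cdk19 was at 15.6, 17.0 and 20.8 CPM in females and 68.2, 82.7 and 98.1 CPM in males, adjusted p = 1.07e-18. Cdk19 lies 47.1 kb from Amd1 on chromosome 10, and Shc2 lies 1.61 kb from Odf3l2 on the same chromosome. Hipk2 was at 95.5 to 122 CPM in females and 203 to 228 CPM in males, so a difference of under 2-fold separated all 16 libraries.

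Slow fibre genes were higher in females. Of 15 autosomal members tested, 11 (73.3%) were higher in females, against 6.36% over all genes, and none was lower. The median log2 fold change was 0.78 against 0.04 over all genes. The same 11 to 0 split held without the 5 libraries with Krt8 above 3 CPM, and the score of the slow fibre genes differed by 0.62 to 0.98 between the sexes within each of the 3 runs of sample identifiers. The genes called cover the thick filament (Myh7, Myh7b, Myl2, Myl3), the thin filament (Tnnt1, Tnni1, Tnnc1, Tpm3) and calcium storage and reuptake (Atp2a2, Casq2, Sln). In bulk muscle, fewer cells of a type and less RNA per cell cannot be told apart.

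Myh7 (chromosome 14, 54970688-54994634), the slow myosin heavy chain, was at 519 CPM in the lowest, 596 in the median and 1461 in the highest female library, and at 241, 339 and 421 CPM in males. No male library reached the lowest female one, while the highest female value stood far from the other females. The log2 fold change was 1.14 ± 0.18, adjusted p = 1.69e-05. Tnnt1 (chromosome 7, 4504570-4516382), slow troponin T, was at 102, 128 and 269 CPM in females and 44.5, 64.3 and 84.3 CPM in males (1.17 ± 0.17, adjusted p = 1.68e-06). Myl2 (chromosome 5, 122100951-122113472), the slow regulatory light chain, was at 131, 171 and 316 CPM in females and 62.1, 92.1 and 112 CPM in males (1.05 ± 0.15, adjusted p = 2.37e-06). Both showed separate sexes. Atp2a2, the slow calcium pump of the sarcoplasmic reticulum, was at 335 to 844 CPM in females and 199 to 324 CPM in males (0.73 ± 0.14). The highest library for Myh7 and Atp2a2 was the same one, female replicate 4 on 44% fat. Leaving out each library in turn left 10 or 11 slow fibre genes higher.

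The window before 1 of the 2 listed start sites of Myh7 (RefSeq, GRCm38.p6, chr14:54994627-54994876, minus strand) is printed, with capitals as above. Myh7 was taken as the gene that defines slow fibres. The window of the other start site touched an annotated exon and was left out.
Myh7: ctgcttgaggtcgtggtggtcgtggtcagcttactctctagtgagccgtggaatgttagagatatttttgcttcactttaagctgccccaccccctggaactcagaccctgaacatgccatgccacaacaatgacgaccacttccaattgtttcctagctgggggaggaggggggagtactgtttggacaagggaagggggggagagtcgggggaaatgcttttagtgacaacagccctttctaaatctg
None of the 3 motifs matched within this window, and nothing is given for the other start site. The end of the gene span given above, from the deposited annotation, lies within the window.

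Of 17 fast fibre genes tested, 4 (23.5%) were lower in females, against 8.76% over all genes, and none was higher, and the median log2 fold change was -0.08. Mylk4, a myosin light chain kinase, was at 480, 561 and 797 CPM in females and 1471, 1704 and 1862 CPM in males, with separate sexes (-1.47 ± 0.15, adjusted p = 1.30e-09). Myl1, Tnni2 and Mylk2 were lower in females by small amounts (-0.30, -0.22 and -0.25), and Mylk2 lost its call when any of 9 single libraries was left out. The fast myosins Myh4 (-0.13, adjusted p = 0.25), Myh1 (-0.03, adjusted p = 0.89) and Myh2 (0.30, adjusted p = 0.22) did not pass. Without the 5 libraries with Krt8 above 3 CPM, 1 of the fast fibre genes was lower in females. The plot of fibre type genes sets both lists side by side.

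**Figure D2:**
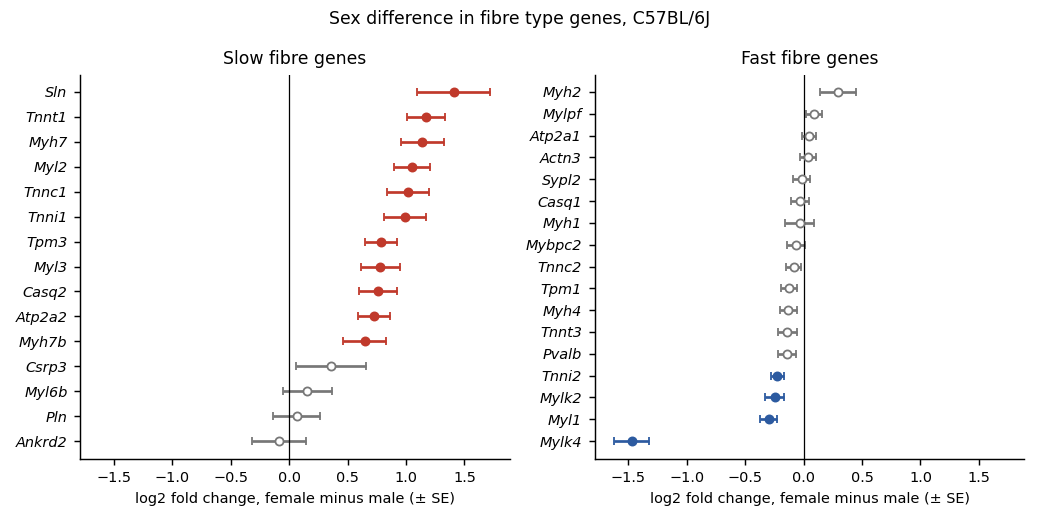
Log2 fold change, female minus male, with its standard error for every autosomal slow (left) and fast (right) fibre gene tested. Filled points have an adjusted p under 0.05, red where higher in females and blue where lower. The slow genes called lie between 0.65 and 1.41, and of the fast genes Mylk4 stands apart at -1.47.

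Mybph and Actc1 had the largest female excess among genes with a mean above 100 CPM in the higher sex. Mybph (chromosome 1, 134193448-134201232), a myosin-binding protein, was at 217, 341 and 380.1 CPM in females and 26.2, 54.9 and 91.1 CPM in males. The sexes were separate by a wide gap, with a log2 fold change of 2.57 ± 0.17 and an adjusted p of 4.42e-14. Adora1, which overlaps Mybph on the opposite strand, was also higher in females (1.60 ± 0.22), at 9.70 against 3.06 CPM on average, and reads of the pair may not be separable. Actc1, cardiac actin, was at 454, 739 and 1329 CPM in females and 84.5, 152 and 493 CPM in males (1.91 ± 0.29, adjusted p = 5.46e-06), with the top male library above the lowest female. Of 15 embryonic, perinatal and myogenic regulatory genes tested, none was higher and 5 (33.3%) were lower in females, against 8.76% over all genes. The median was -0.16. Eya1, a transcriptional cofactor of muscle development, was at -0.59 ± 0.10, Eya4 at -0.56 and the myogenic factor Myf6 at -0.34, and 2 of the embryonic, perinatal and myogenic regulatory genes were called without the 5 libraries with Krt8 above 3 CPM.

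Mybph is shown as the gene with the largest female excess above 100 CPM (RefSeq, GRCm38.p6, chr1:134193198-134193447, plus strand), with the same marking.
Mybph: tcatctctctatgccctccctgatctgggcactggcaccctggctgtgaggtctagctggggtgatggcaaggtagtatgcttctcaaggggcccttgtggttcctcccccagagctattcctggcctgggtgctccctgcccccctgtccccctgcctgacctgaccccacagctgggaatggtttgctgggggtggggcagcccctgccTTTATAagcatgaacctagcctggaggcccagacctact
This window held 1 match to the TATA letters, on the opposite strand as TTTATA, and no GC box or androgen half-site.

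The adenylate kinase Ak4 was at 7.99, 9.86 and 12.2 CPM in females and 1.66, 2.12 and 3.37 CPM in males (2.11 ± 0.14, adjusted p = 2.27e-14), with separate sexes. Pcx, pyruvate carboxylase, was at 129.8, 253 and 299.7 CPM in females and 83.5, 95.3 and 109 CPM in males (1.25 ± 0.15, adjusted p = 6.05e-08). Lrfn4 lies within Pcx on the opposite strand and was higher in females too (1.54 ± 0.31), without passing once the libraries with Krt8 above 3 CPM were left out. Branched-chain amino acid breakdown was higher in females in part: 8 of 23 genes (34.8%) were higher, against 6.36% over all genes. None was lower, and the median was 0.07. Bckdhb and Dbt, subunits of the branched-chain ketoacid dehydrogenase, were at 0.44 and 0.47, the acyl-CoA dehydrogenase Acadsb at 0.34 and Echs1 at 0.25. The number higher in branched-chain amino acid breakdown was 5 without the 5 libraries with Krt8 above 3 CPM and 2 with the Schwann cell score in the model.

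Oxidative phosphorylation genes were lower in females where they passed, by small amounts. Of 38 nuclear genes tested, none was higher and 7 (18.4%) were lower in females, against 8.76% over all genes, with a median of -0.10. The complex I subunit Ndufs4 (-0.36 ± 0.06) and the complex III subunit Uqcrc1 (-0.24) were among them. None of the 38 was called without the 5 libraries with Krt8 above 3 CPM, and the list oxidative phosphorylation, nuclear genes had 4 lower members without female replicate 1 on 44% fat or female replicates 2 or 3 on 10% fat and 13 without female replicate 1 on 10% fat. Of 22 mitochondrial regulators and uncoupling genes, 5 (22.7%) were lower in females, against 8.76% over all genes. They included the nuclear receptor Esrra (-0.35 ± 0.07) and its coactivator Ppargc1a (-0.41, adjusted p = 0.0283). Ppargc1a lost its call when any of 4 single libraries was left out. None of the mitochondrial regulators and uncoupling genes was called without the 5 libraries with Krt8 above 3 CPM. Of 19 tricarboxylic acid cycle genes 3 were higher and 2 lower (26.3% called, against 15.1% over all genes). In the list tricarboxylic acid cycle 6 were lower without female replicate 1 on 10% fat and 5 without female replicate 4 on 44% fat. Fatty acid oxidation had 1 higher and 1 lower of 23 (8.7%, below the 15.1% over all genes).

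Glucose handling differed at a few points. Slc2a3, a high-affinity glucose transporter, was at 1.28, 3.47 and 4.70 CPM in females and 11.5, 15.7 and 16.6 CPM in males (-2.25 ± 0.18, adjusted p = 4.92e-12), with separate sexes. Of 24 glycolysis and glycogen genes, 6 were lower and 2 higher in females (33.3%, against 15.1% over all genes), with a median of -0.08. Hexokinase Hk2 (-0.36) and Gpi1 (-0.25) were lower, and the muscle fructose bisphosphatase Fbp2, a gluconeogenic enzyme, was higher (0.78 ± 0.16, adjusted p = 0.000368). None of the 6 was called without the libraries with Krt8 above 3 CPM. Insulin signalling and glucose uptake had 3 higher and 3 lower of 23 (26.1%, against 15.1% over all genes). The lipid uptake list had 2 higher and 1 lower of 23 (13%), near the 15.1% over all genes. Its smallest p was that of the lipoprotein receptor Vldlr. Vldlr was at 172, 206 and 235 CPM in females and 398, 435 and 487 CPM in males (-1.07 ± 0.09, adjusted p = 3.42e-12).

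Lipogenic genes varied between female libraries. Of 15 tested, 3 were higher and 1 lower in females (26.7%, against 15.1% over all genes), with a median of 0.77. The median was -0.05 without the 5 libraries with Krt8 above 3 CPM and -0.05 with the white adipocyte score in the model, and leaving out single libraries gave 1 to 6 higher members of the list de novo lipogenesis. The mean score of the list differed by 0.0969, 1.35 and -0.15 in the 3 runs. Elovl6, a fatty acid elongase, was at 2.57, 8.66 and 29.1 CPM in females and 1.36, 2.15 and 7.35 CPM in males (1.79 ± 0.53, adjusted p = 0.0163), the sexes overlapped, and the call was lost in 8 of 31 alternatives. Acaca was at 1.03 (adjusted p = 0.0455) and at -0.02 within the third run of identifiers, and lost its call in 19 of 31 alternatives, 11 of which left out a single library. The regulator Mlxipl was higher (0.41 ± 0.08) and Srebf1 lower (-0.51 ± 0.12). White adipocyte markers summed to 386 to 1150 CPM in females and 227 to 696 CPM in males, with all 10 positive and 1 called, Cfd (1.15 ± 0.35), which lost its call when any of 3 single libraries was left out. Adipoq, a defining adipocyte gene, was at 29.2 to 96.5 CPM in females and 12.4 to 63.7 CPM in males (0.87, adjusted p = 0.0884). With the white adipocyte score in the model, 1 of the de novo lipogenesis genes was higher and 1 lower. The part of adipocyte RNA in the lipogenic values was not tested further.

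Of 22 genes of growth hormone and IGF signalling, 9 were higher in females, 1 was lower and 12 did not pass, with a median of 0.15. The share called was 45.5%, against 15.1% over all genes. Without the 5 libraries with Krt8 above 3 CPM, 5 members of growth hormone and IGF signalling were higher and 1 was lower. Grb10, an imprinted inhibitor of insulin and IGF receptors, was at 62.9, 70.9 and 84.1 CPM in females and 29.7, 39.6 and 52.5 CPM in males (0.84 ± 0.09, adjusted p = 4.80e-09). The imprinted noncoding RNA H19 (chromosome 7, 142575529-142578143) was at 519, 791 and 1318 CPM in females and 172, 291 and 355 CPM in males (1.53 ± 0.15, adjusted p = 4.87e-10). Its neighbour Igf2, the imprinted growth factor, was at 22.8 to 36.4 CPM in females and 16.2 to 24.2 CPM in males (0.49 ± 0.09). The sexes were separate for Grb10 and H19 and overlapped for Igf2. Jak2, the kinase of growth hormone and prolactin receptors, was the 1 member lower in females (-0.55 ± 0.07). Igf1, named for its known part in muscle growth and not by the rule, was at 22.7 to 34.1 CPM in females and 17.4 to 54.0 CPM in males and did not pass (-0.23, adjusted p = 0.355).

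Several hormone receptor genes were high in the female libraries that held epithelial genes. Prlr, the prolactin receptor, was at 1.12, 7.01 and 16.3 CPM in females and 0.348 to 0.614 CPM in males (3.98 ± 0.48, adjusted p = 9.16e-08). Pgr, the progesterone receptor, was at 0 to 2.74 CPM in females and at most 0.0652 CPM in males. The 5 libraries with Krt8 above 3 CPM held the 5 highest Prlr values, 5.75 to 16.3 CPM, against 1.12 to 1.49 CPM in the other 3 females. Oxtr, the oxytocin receptor, was at 0.546 to 30.4 CPM in females and 0.0652 to 0.839 CPM in males. Pgr and Oxtr lost their calls without the 5 libraries with Krt8 above 3 CPM, where their adjusted p was 1.00 and 0.590 (edgeR), the largest over their alternatives, and Prlr kept its call (largest adjusted p 0.0186). Dmbt1, a secreted mucosal protein, was at 0.0672 to 25.9 CPM in females and 0 to 0.326 CPM in males (7.83 ± 1.14), and its highest value was in female replicate 1 on 10% fat, which had Krt8 at 0. Cela1, an elastase, was at 85.2 CPM in that same library and at most 0.717 CPM in the others. Its log2 fold change of 2.83 became -0.04 (adjusted p = 0.968, edgeR) without it. The part of epithelial RNA in these values was not tested further. Among 14 receptors and steroid enzymes, 4 were higher and 2 lower (42.9%, against 15.1% over all genes). The lower ones included Hsd11b1, which regenerates active glucocorticoid (-0.71). In the list sex steroid and thyroid receptors and steroid enzymes 1 was higher and 1 lower without the 5 libraries with Krt8 above 3 CPM, and 2 and 2 without female replicate 4 on 10% fat. The estrogen receptor Esr1, also named outside the rule, was at 0.21 (adjusted p = 0.150).

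**Figure D3:**
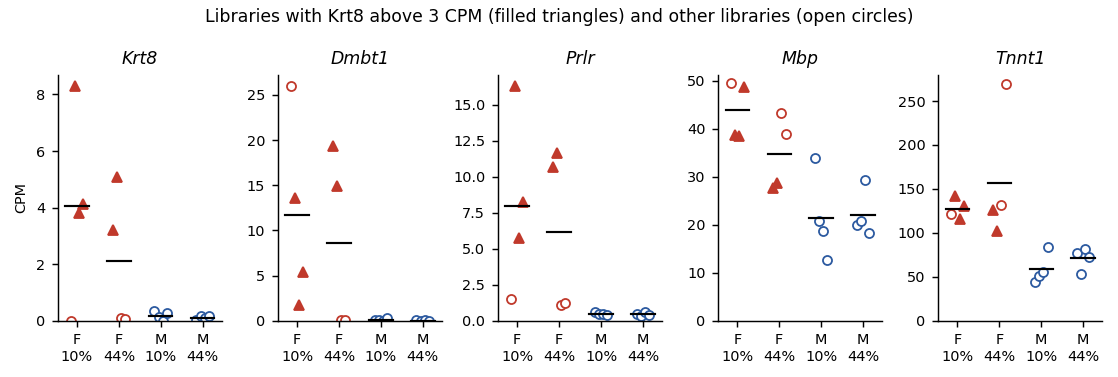
CPM on linear axes of 5 genes by sex and percent fat, each point a library and black bars means of 4. Filled triangles are the 5 female libraries with Krt8 above 3 CPM. Prlr is highest in those libraries, at up to 16.3 CPM, while for Mbp and Tnnt1 the highest female point on each diet is an open one, except for Tnnt1 on 10% fat.

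Schwann cell and nerve markers were higher in females. Of 9 tested, 8 (88.9%) were higher, against 6.36% over all genes, and none lower, with a median of 0.81. Mbp, a structural protein of myelin, was at 27.7, 38.9 and 49.5 CPM in the lowest, median and highest female library and 12.6, 20.4 and 33.9 CPM in males (0.86 ± 0.22, adjusted p = 0.00521). Ncmap was at 1.06 and Pmp22 at 0.57, and the sexes overlapped in all 3. Summed over the list, females had 112 to 222 CPM and males 74.0 to 145 CPM. Without the 5 libraries with Krt8 above 3 CPM, 5 of the Schwann cell and nerve markers were higher. With the Schwann score as a covariate 1481 autosomal genes were called, 1352 of them among the 2509. The part of nerve RNA in the other results was not tested further.

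Of 18 synapse and denervation genes 5 (27.8%) were lower in females, against 8.76% over all genes, none was higher and 13 did not pass. Of the 18 values 9 were positive, with a median of -0.01. Musk, the receptor kinase that organises the neuromuscular junction, was at 11.7, 14.0 and 22.9 CPM in females and 27.8, 32.8 and 46.3 CPM in males (-1.13 ± 0.17, adjusted p = 4.33e-06), with separate sexes. Its activator Dok7 was at -0.61 ± 0.11 and acetylcholinesterase Ache at -0.41. Of the synapse and denervation genes 2 were lower without the 5 libraries with Krt8 above 3 CPM. Calcium handling genes were split, with 3 of 28 higher and 6 lower (32.1%, against 15.1% over all genes). The 3 higher ones, Atp2a2, Casq2 and Sln, are also on the slow fibre list. In calcium handling and excitation 3 genes were higher and 1 lower without the 5 libraries with Krt8 above 3 CPM. Ryr3, a minor ryanodine receptor of muscle, was at 1.03 to 2.11 CPM in females and 2.64 to 7.86 CPM in males (-1.37 ± 0.23), and the channel subunit Cacng1 was at -0.37. Casr, the calcium-sensing receptor, was at 15.31, 18.22 and 19.98 CPM in females and 4.45, 7.23 and 13.1 CPM in males (1.28 ± 0.13, adjusted p = 1.89e-09).

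Clock genes were lower in females where they differed. Of 19 tested, 6 (31.6%) were lower, against 8.76% over all genes, and none higher. The median was -0.19, the lowest of the pathway lists. Bhlhe41, a repressor in the clock, was at 17.4, 21.2 and 24.3 CPM in females and 41.6, 49.4 and 53.5 CPM in males (-1.16 ± 0.13, adjusted p = 2.25e-08). Hlf, an output factor, was at 7.68 to 10.5 CPM in females and 14.1 to 21.5 CPM in males (adjusted p = 3.83e-06), and neither gene overlapped between the sexes. Per2 was at -1.21 ± 0.29 with overlapping sexes. Of the circadian clock genes 2 were called without the 5 libraries with Krt8 above 3 CPM. The core activator Arntl was at -0.04 (adjusted p = 0.92). Hour of tissue collection is not given in the sources used here.

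Genes of protein turnover went in both directions. Of 22 atrophy and autophagy genes, 9 were higher and 3 lower in females (54.5%, against 15.1% over all genes), with a median of 0.13. Without the 5 libraries with Krt8 above 3 CPM, 5 of the atrophy and autophagy genes were higher and 2 lower. Sesn1, a stress-induced inhibitor of growth signalling, was at 32.5, 37.7 and 49.9 CPM in females and 13.7, 18.6 and 22.5 CPM in males (1.05 ± 0.14, adjusted p = 4.47e-07), with separate sexes. Gadd45a (0.81) and the cathepsin Ctsl (0.50) were higher, and the autophagy receptor Sqstm1 was lower, at 333 to 443 CPM in females and 474 to 562 CPM in males (-0.44 ± 0.06). The ubiquitin ligases Fbxo32 and Trim63, best known in atrophy and named outside the rule, did not pass (-0.33, adjusted p = 0.242, and -0.05, adjusted p = 0.874). Of 16 glucocorticoid target genes 2 (12.5%) were higher, against 6.36% over all genes, Pik3r1 (0.62 ± 0.13) among them.

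Ribosomal proteins were slightly higher in females: 18 of 30 (60%) were higher, against 6.36% over all genes, and none lower. The median was 0.20. Rplp0 was at 479.7 to 541 CPM in females and 395 to 441 CPM in males (0.28 ± 0.05, adjusted p = 2.21e-05), with separate sexes, and the same held for Rps2 (0.29) and Rpl13 (0.26). Rpl7 was at 0.20 and overlapped. The count of ribosomal proteins called was 10 without female replicate 1 on 44% fat. It fell to 2 without the 5 libraries with Krt8 above 3 CPM and to 3 with the epithelial score in the model. Of 31 heat shock and unfolded protein response genes 4 were higher and 2 lower (19.4%, near the 15.1% over all genes). Xbp1, a factor of secretory protein folding, was at 59.0, 72.0 and 82.7 CPM in females and 40.9, 45.7 and 49.0 CPM in males (0.66 ± 0.06, adjusted p = 5.05e-10). The chaperone Hspb8 was lower (-0.45 ± 0.07), Atf4 was at -0.24 and its target Asns at 0.88.

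Antioxidant and detoxifying enzymes were divided, with 6 of 36 higher and 6 lower (33.3%, against 15.1% over all genes). Of the antioxidant, glutathione and xenobiotic genes 2 were higher and 1 lower without the 5 libraries with Krt8 above 3 CPM. Gpx3, secreted glutathione peroxidase, was at 184, 288 and 356 CPM in females and 94.4, 106 and 132 CPM in males (1.35 ± 0.16, adjusted p = 4.01e-08). Gstm2, a glutathione transferase, was at 38.4 to 51.2 CPM in females and 16.4 to 27.1 CPM in males (1.00 ± 0.08). Cbr2, a carbonyl reductase, was at 8.61, 9.28 and 9.91 CPM in females and 19.7, 25.7 and 28.7 CPM in males (-1.46 ± 0.11, adjusted p = 1.31e-12). For all 3 genes the sexes were separate.

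Secreted factors included several with higher expression in females. Il15, a cytokine made by muscle, was at 4.29, 5.22 and 5.61 CPM in females and 1.95, 2.52 and 3.13 CPM in males (1.03 ± 0.12, adjusted p = 2.06e-08). Ostn, the muscle peptide osteocrin, was at 22.03, 29.21 and 54.13 CPM in females and 10.34, 13.97 and 15.96 CPM in males (1.07 ± 0.15). Stc2, a secreted glycoprotein, was at 3.97 to 12.1 CPM in females and 0.554 to 2.36 CPM in males (2.43 ± 0.31), and Fgf2 was at 0.55. Of 22 muscle-secreted factors tested, 5 were higher and 2 lower (31.8%, against 15.1% over all genes). Of 23 angiogenesis and hypoxia genes 2 were higher and 3 lower (21.7%, against 15.1% over all genes). The 2 higher ones were the vascular growth factor Angpt1 (0.70 ± 0.10) and the oxygen sensor Egln3 (0.73). Sh2d4a (1.24 ± 0.10) and the phosphatase inhibitor Ppp1r1a (0.87 ± 0.09) were among the female-high genes with the smallest p.

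Few immune and matrix genes passed. All 25 interferon-stimulated genes had a positive log2 fold change, with a median of 0.42. But 3 (12%) passed, all higher in females. Over all genes 6.36% were higher and 15.1% were called in either direction. The 3 were Oasl2 (0.73), Oas1a (1.09) and Ifit3 (0.70). Ifit3 lost its call when any of 10 single libraries was left out, and Oasl2 without female replicate 4 on 44% fat. None was called without the 5 libraries with Krt8 above 3 CPM. Of 30 collagen and extracellular matrix genes 1 was higher (3.33%, against 6.36% over all genes). Of 34 genes of myostatin, activin and BMP signalling 1 was higher and 4 lower (14.7%, near the share over all genes). Cholesterol synthesis had 3 higher and 2 lower of 20 (25%, against 15.1% over all genes). Of cholesterol synthesis genes none was higher without male replicate 2 on 10% fat, and none was called without the 5 libraries with Krt8 above 3 CPM. None of 14 lymphocyte markers passed, and their sum ranged from 2.04 to 279 CPM in females and from 1.70 to 121 CPM in males. None of 13 macrophage and myeloid markers, 10 endothelial markers or 6 erythroid markers passed. Among the remaining cell types, 2 of 9 smooth muscle and pericyte markers, 1 of 9 satellite cell markers, 1 of 8 brown adipocyte markers and 2 of 10 skeletal myofibre markers were lower in females. Of fibroblast markers 1 of 10 was higher, of tendon markers 2 of 9 and of epidermal markers 1 of 4. Over all genes 8.76% were lower and 6.36% higher. With so few markers these counts are no result about a cell type. The plot of gene lists gives every pathway list.

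**Figure D4:**
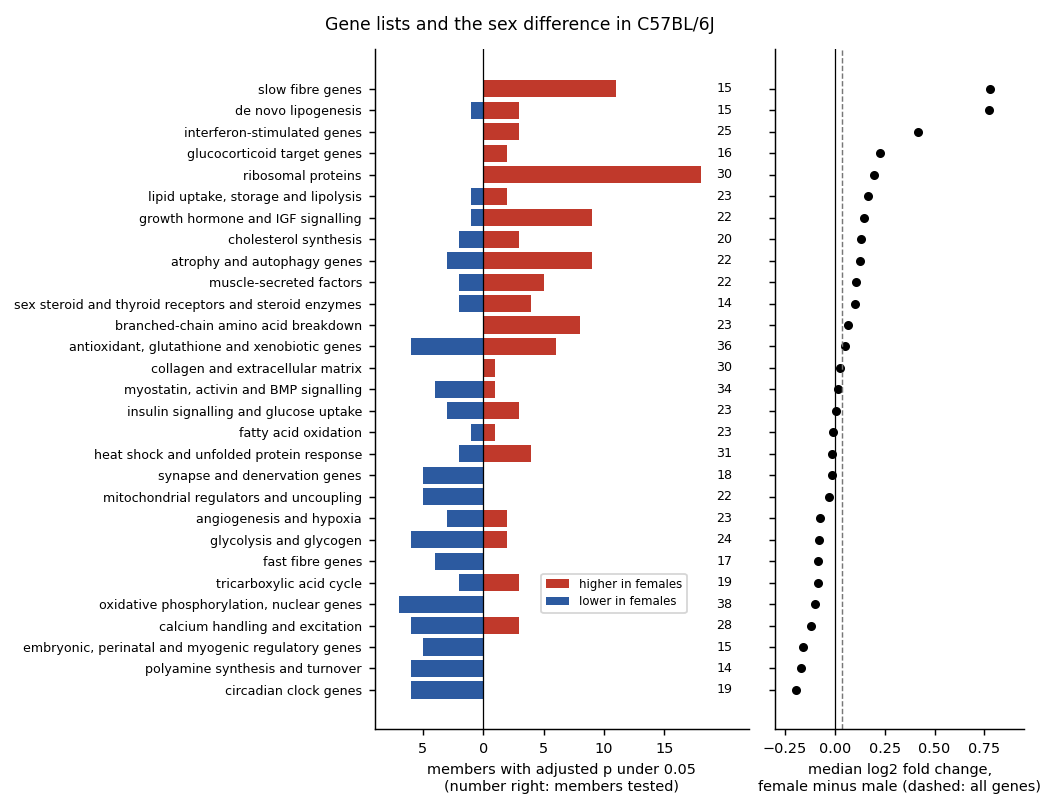
Left, number of members of each of 29 pathway lists with an adjusted p under 0.05, to the right in red where higher in females and to the left in blue where lower, with the number tested at the margin. Right, the median log2 fold change of the tested members, with the median over all genes dashed. Ribosomal proteins have 18 of 30 and slow fibre genes 11 of 15 higher in females, with medians of 0.20 and 0.78. Over all genes 6.36% were higher and 8.76% lower.

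The sexes were also compared on each diet alone. These comparisons were not repeated without the 5 female libraries with Krt8 above 3 CPM (replicates 2, 3 and 4 on 10% fat, 1 and 2 on 44% fat). On 10% fat alone 899 autosomal genes (5.42%) were called, 397 higher (2.39%) and 502 lower (3.03%) in females. On 44% fat alone it was 1438 (8.67%), 491 higher (2.96%) and 947 lower (5.71%). Of the 2509 genes called on the mean over both diets, 2506 had the same sign on each, which that choice of genes largely fixes, and 565 were called on each diet separately. The test of the difference between the diets called no autosomal gene (0%), 883 had an unadjusted p under 0.05, and DESeq2 also called none. Casr was at 0.94 on 10% fat and 1.62 on 44% fat, Ostn at 0.66 and 1.49 and Actc1 at 1.36 and 2.47, none of them a difference that passed. On 44% fat the count fell to 834 without female replicate 1 and to 877 without male replicate 2.

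Against CAST/EiJ, the sex difference of C57BL/6J itself differed for 416 genes (2.51%), of which 125 (0.753%) were more toward females and 291 (1.75%) more toward males in C57BL/6J. The differences from CAST/EiJ and NZO/HlLtJ were not tested again without the 5 C57BL/6J female libraries with Krt8 above 3 CPM. Sex was called for 700 genes (4.22%) in CAST/EiJ, 365 (2.2%) higher and 335 (2.02%) lower in females, and 328 genes were called in both strains in the same direction, 13.1% of the C57BL/6J genes and 46.9% of the CAST/EiJ genes. Amd1, Odc1 and Smox were lower in females in CAST/EiJ as well. Amd1 was at -2.25 there, a difference of -1.08 (adjusted p = 0.000246), and Odc1 at -0.75, a difference of -1.01 (adjusted p = 0.000437). Smox was at -1.87, and its difference did not pass (adjusted p = 0.404). Actr3b was at -0.88, a difference of -2.83 (adjusted p = 9.59e-14), and Slc30a2 at -0.98, a difference of -2.95 (adjusted p = 2.26e-11). Mybph was at 0.21 in CAST/EiJ, a difference of 2.36 (adjusted p = 2.55e-08). Casr took opposite signs, 1.28 in C57BL/6J and -1.23 in CAST/EiJ (adjusted p of the difference 1.64e-11), and both passed in their own strain.

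Of the slow fibre genes, none of 15 was called in CAST/EiJ, where their median was 0.20. The difference between the strains was itself called in edgeR for Tnnt1 (1.00, adjusted p = 0.00962) and Myl2 (0.84, adjusted p = 0.0226). These were the only 2 of the 15, against 2.51% of all genes. For the clock genes the difference between the strains was called for 9 of 19, against 2.51% of all genes. They included Bhlhe41 (-1.03), Hlf (-1.31) and Per2 (-2.06, adjusted p = 0.00192). In CAST/EiJ 4 clock genes were higher and 3 lower in females, where 2.2% of all genes were higher and 2.02% lower.

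Against NZO/HlLtJ the sex difference of C57BL/6J differed for 79 genes (0.476%), 38 (0.229%) more toward females and 41 (0.247%) more toward males, and for 201 by DESeq2. Sex was called for 1960 genes (11.8%) in NZO/HlLtJ, 849 (5.12%) higher and 1111 (6.7%) lower in females, and 1064 were called in both strains in the same direction, 42.4% of the C57BL/6J genes and 54.3% of the NZO/HlLtJ genes. Amd1 was at -3.07, Smox at -2.03 and Odc1 at -1.63 in NZO/HlLtJ, and none of these 3 passed the test of the difference. Amd2 did (-1.43, adjusted p = 0.00118), with the reservation on reads shared with Amd1. Of the slow fibre genes 10 were higher in NZO/HlLtJ females, against 5.12% over all genes. The median of the list was 0.65, and none of its members differed between the strains at the threshold. Actr3b (-1.76, adjusted p = 3.52e-08), Msrb1 (-0.72), Mybph (1.10), Ak4 (0.94) and Gpx3 (0.99) were among the genes that did differ. Sex was called in the same direction in all 3 strains for 186 genes.

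**Figure D5:**
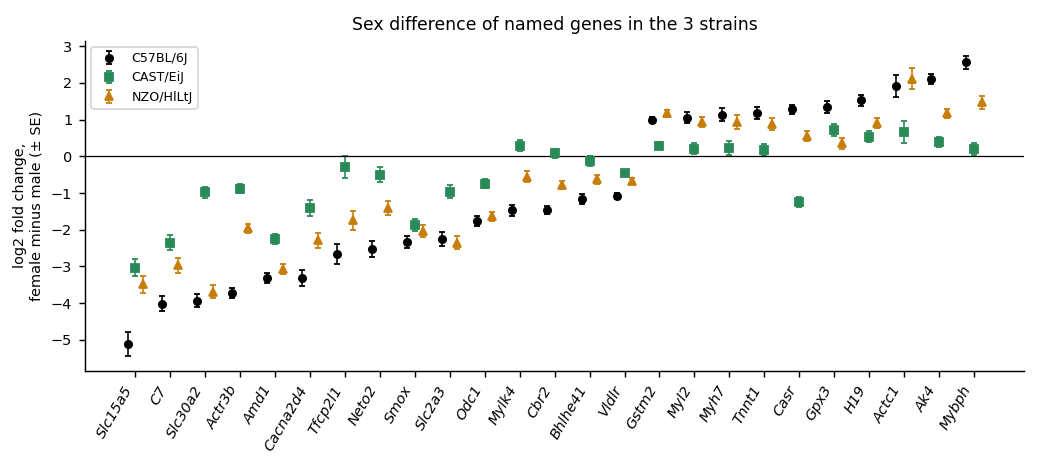
Log2 fold change, female minus male, with its standard error in C57BL/6J (circles), CAST/EiJ (squares) and NZO/HlLtJ (triangles) for 25 named genes in order of role and size. Amd1 lies at -3.32, -2.25 and -3.07 in these strains, and Casr lies at 1.28 in C57BL/6J and -1.23 in CAST/EiJ.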

How the data were processed

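Poly(A) RNA of gastrocnemius muscle was sequenced as 100 bp paired reads, per the labels' protocols. The authors deposited unscaled expected counts of 20796 genes, and 81.19% of these values were whole within 1e-06. Genome build GRCm38 and DESeq2 come from the submitters' processing notes, while for the aligner, counter and use of strand the sources used here give nothing. Chromosomes and positions came from the deposited annotation.

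Expected counts were rounded to whole numbers and tested in R 4.3.3 with edgeR 4.0.16 (limma 3.58.1): TMM scaling, filterByExpr, and a quasi-likelihood model of all 47 libraries with 12 strain, sex and diet groups and the identifier run, 33 residual degrees of freedom. The sex effect is the mean over both diets, and SE is the log2 fold change over the root of F. Adjusted p is Benjamini-Hochberg over all 17159 genes tested, and only the 16592 autosomal ones are reported. CPM are scaled by TMM. Calls used an adjusted p under 0.05. DESeq2 1.42.0 was an alternative. The code was tested on simulated data.

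Genes were named as the 12 largest and the 12 smallest p in each direction among genes called at a mean of at least 5 CPM with the same sign on both diets, the 4 smallest p of each list, and the 6 smallest p of each difference between strains, of which some are left out here. Other list members were named for their role after their values were seen. Members and lists were chosen with earlier results of these data known. Promoters are RefSeq sequence of GRCm38.p6, 250 bases before the start site. Of 9 genes searched, 4 had a window free of annotated exons, and 3 of these are printed. No 2 replicates of a group agreed within sampling noise: chi-squared per degree of freedom was 17.47 to 72.11 over 24 pairs. Results for some genes are not reported here.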

Additional observations from a re-analysis of the deposited data

Results flagged for a closer look

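Among the 108 genes examined, 432 groups of 4 libraries were searched for a library far from the other 3, and chance gives such a library in about 1 group in 20. It was found in 16 groups. Smox was at 299 CPM in 1 library (male 44% fat, replicate 3), with the others at 218 to 229 CPM. Actr3b was at 1.73 CPM in 1 library (female 10% fat, replicate 1), with the others at 1.17 to 1.25 CPM. Mybph was at 217 CPM in 1 library (female 10% fat, replicate 2), with the others at 350 to 377 CPM. Casr was at 13.1 CPM in 1 library (male 10% fat, replicate 2), with the others at 7.11 to 7.75 CPM. Myh7 was at 1461 CPM in 1 library (female 44% fat, replicate 4), with the others at 519 to 618 CPM. Myh7 was at 260 CPM in 1 library (male 44% fat, replicate 2), with the others at 374 to 402 CPM. Pgr was at 0.0652 CPM in 1 library (male 10% fat, replicate 4), with the others at 0 CPM. Eya4 was at 33 CPM in 1 library (male 44% fat, replicate 1), with the others at 40.6 to 41.9 CPM. Dok7 was at 16.3 CPM in 1 library (male 10% fat, replicate 1), with the others at 11.7 to 12.1 CPM. Bhlhe41 was at 42.5 CPM in 1 library (male 10% fat, replicate 4), with the others at 49.5 to 50.6 CPM. Ryr3 was at 2.95 CPM in 1 library (male 10% fat, replicate 2), with the others at 4.04 to 4.21 CPM. Atp2a2 was at 844 CPM in 1 library (female 44% fat, replicate 4), with the others at 391 to 414 CPM. Angpt1 was at 12.3 CPM in 1 library (male 10% fat, replicate 4), with the others at 9.24 to 9.68 CPM. Hspb8 was at 284 CPM in 1 library (male 10% fat, replicate 3), with the others at 313 to 315 CPM. Pmp22 was at 36.8 CPM in 1 library (male 44% fat, replicate 3), with the others at 29.7 to 30.2 CPM. Anxa7 was at 48.3 CPM in 1 library (female 10% fat, replicate 1), with the others at 42.8 to 43.2 CPM.

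The sex difference of C57BL/6J differed from that of CAST/EiJ by the test of the difference itself in 50 of the 108 genes examined, against 2.51% of all autosomal genes. Most of the 108 were chosen for their sex difference in C57BL/6J and some for this difference, so their share is no result. The adjusted p from edgeR was 9.59e-14 to 0.0443. Values are the log2 fold change, female minus male, of C57BL/6J less that of CAST/EiJ. The difference was negative, more toward males in C57BL/6J, for Amd1 (-1.08), Amd2 (-0.87), Odc1 (-1.01), Slc15a5 (-2.08), C7 (-1.66), Slc30a2 (-2.95), Actr3b (-2.83), Cacna2d4 (-1.91) and Tfcp2l1 (-2.36). It was also negative for Neto2 (-2.03), Odf3l2 (-2.64), Cdk19 (-1.05), Serpinb6a (-0.84), Hipk2 (-0.56), Shc2 (-1.23), Mylk4 (-1.76), Jak2 (-0.36) and Musk (-0.98). Further negative differences were those of Sqstm1 (-0.36), Bhlhe41 (-1.03), Hlf (-1.31), Per2 (-2.06), Vldlr (-0.62), Slc2a3 (-1.29), Ryr3 (-1.42), Cbr2 (-1.54) and Col7a1 (-1.31). The last negative ones were those of Anxa7 (-0.80), Msrb1 (-0.62), Sorl1 (-0.62) and Abhd16a (-0.38). It was positive, more toward females in C57BL/6J, for Dmbt1 (7.97), Mybph (2.36), Ak4 (1.72), Adora1 (1.56), H19 (0.99), Sh2d4a (1.09), Gstm2 (0.70), Xbp1 (0.39) and Ppp1r1a (0.78). Positive differences were also found for Casr (2.51), Grb10 (0.85), Tnnt1 (1.00), Myl2 (0.84), Gadd45a (1.07), Pcx (0.90), Bckdhb (0.33), Dbt (0.48) and Angpt1 (0.62). The last positive difference was that of Ostn (1.28). No difference listed here, that of Dmbt1 included, was tested without the C57BL/6J female libraries with Krt8 above 3 CPM.

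Against NZO/HlLtJ the difference passed for 15 of the same 108 genes, chosen as above, of 79 (0.476%) among all autosomal genes, with adjusted p from edgeR of 3.52e-08 to 0.037. It was negative for Amd2 (-1.43), Actr3b (-1.76), Hipk2 (-0.31), Shc2 (-0.75), Mylk4 (-0.92), Cbr2 (-0.69), Msrb1 (-0.72), Sorl1 (-0.67) and Abhd16a (-0.36). It was positive for Prlr (3.26), Mybph (1.10), Ak4 (0.94), Sh2d4a (0.83), Gadd45a (0.96) and Gpx3 (0.99).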

How the results depend on the processing

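The number of autosomal genes called for sex in C57BL/6J (2509) stayed between 1854 and 2965 with other scaling, DESeq2, limma-voom, no filter on low counts, no run term, the C57BL/6J libraries alone, and the lymphocyte or white adipocyte score in the model. It was 573 when testing against a 1.2-fold change, a stricter hypothesis. Alternatives chosen after seeing the data gave 1134 with the epithelial score, 1481 with the Schwann cell score and 834 without the 5 female libraries with Krt8 above 3 CPM. The cause was not tested, though the last has fewer samples, with 1 female library left on 10% fat. These alternatives were run only for sex over both diets, not for each diet alone, sex by diet or the differences between strains. Leaving out 1 library at a time gave 2001 to 2682 genes for sex, 622 to 930 on 10% fat, 834 to 1659 on 44% fat, 0 to 0 for sex by diet, 310 to 450 for the difference from CAST/EiJ and 62 to 121 for that from NZO/HlLtJ. The lowest on 44% fat were 834 without female replicate 1 and 877 without male replicate 2, and 121 came without female replicate 4 on 44% fat. DESeq2 called 201 genes for the difference from NZO/HlLtJ against 79. Signs reversed for Cela1 (-0.043 without female replicate 1 on 10% fat, -0.71 in the third run). They also reversed for Acaca (-0.020 in the third run) and Adipoq (-0.10 in the first run). The cause was not tested. With the Schwann cell score in the model, Mbp (-0.11) and Pmp22 (-0.15) changed sign. Both genes are part of that score, so a model that holds it cannot test them. Across TMM, upper-quartile, RLE and DESeq2 scaling the median over all genes stayed at 0.03 to 0.04. No paired analysis was possible because the labels carry no replicate numbers; those used here follow sample order. With 8 libraries a sex, small differences may have been missed.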

Other observations

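The share of tested genes called for sex ranged from 12.1% on chromosome 17 to 19.4% on chromosome 16. Of the 2509 genes called, 10 were called in CAST/EiJ in the opposite direction and 7 in NZO/HlLtJ.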
